A study of Mus musculus with 38 samples.

Results

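The genes described here are 10 that the transcription factor p53 switches on after DNA damage, *Mdm2*, *Ccng1*, *Cdkn1a*, *Bax*, *Eda2r*, *Phlda3*, *Aen*, *Trp53inp1*, *Sesn2* and *Zmat3*, followed in kidneys of mice with doxorubicin nephropathy. They were taken by gene symbol as 10 of the 55487 genes in the count table, and all 10 passed the filter on low counts in each of the 3 experiments of the study. Their levels come from bulk RNA-Seq of 38 libraries in 10 groups, and the study asked what the bone hormone FGF23 does to the kidney in disease. In the experiment of main interest, female BALB/c mice were either healthy or had Adriamycin nephropathy, and each received 1 intravenous injection of recombinant human FGF23 or of vehicle, 24 h before the kidneys were taken. That gave 4 healthy vehicle mice, 4 Adriamycin vehicle mice, 4 healthy FGF23 mice and 4 Adriamycin FGF23 mice. Adriamycin is doxorubicin, given once into a vein, and the healthy mice received saline in its place.

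The other experiments serve as comparison. Male C57BL/6JRj mice were healthy or had anti-glomerular basement membrane (anti-GBM) disease, which follows immunisation with sheep IgG and an injection of nephrotoxic serum, and received FGF23 or vehicle for 6 days. This gave 4 kidneys in each vehicle group and 3 in each FGF23 group. Precision-cut kidney slices from male DBA/2J mice on an adenine diet were cultured with FGF23 or vehicle for 1 h per the labels, with 4 slice cultures each and no healthy slices, and the study's methods give a longer treatment for the slices. Strain, sex, disease model and experiment differ together between the 3 experiments and cannot be told apart.

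p53 is a transcription factor that stays scarce in undamaged cells because Mdm2, the product of one of its own target genes, marks it for degradation. Doxorubicin traps topoisomerase II on DNA and leaves double-strand breaks, which stabilise p53. p53 is mostly regulated as a protein, so its target genes rather than its own transcript are the usual readout of its activity. In the kidney, doxorubicin injures podocytes first, and proteinuria and tubular damage follow in susceptible strains such as BALB/c.

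The binding element of p53 is a pair of 10-base half-sites with a short spacer. The consensus p53 half-site, which reads the same on both strands, was looked for in the promoter windows of RefSeq (GRCm38.p6, 250 bases before to 50 after a gene's start), which held 8 of the 10 genes. It was found without a mismatch in 5 of the 8, against 9.55% of the 27025 gene symbols in the table and 8.36% of its 32851 windows. A second half-site with at most 1 mismatch lay within 13 bases of an exact one in 3 of the 8, against 1.24% of symbols. The matches are printed below as a description. The genes were chosen as p53 targets, so their share of half-sites is not independent of that choice. Exact half-sites and their partners are in capitals, every sequence reads 5′ to 3′ on the gene's strand, and a match describes letters and not binding.
Cdkn1a, chr17:29090901-29090952, plus strand: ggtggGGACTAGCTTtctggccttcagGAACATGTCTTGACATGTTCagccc
Ccng1, chr11:40755457-40755486, minus strand: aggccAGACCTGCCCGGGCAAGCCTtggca
Bax, chr7:45467085-45467115, minus strand: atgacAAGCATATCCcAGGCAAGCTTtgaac
Mdm2, chr10:117710930-117710949, minus strand: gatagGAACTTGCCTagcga
Aen, chr7:78895932-78895951, plus strand: aagccGGGCTTGTCCgggca

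*Cdkn1a* held 2 exact half-sites in the window at the upstream of its 2 starts, where the printed stretch runs from position -78 to position -27 relative to the start, and the window at its other start held none. The printed stretches of *Ccng1* (from position -200), *Bax* (from -217) and *Mdm2* (from -191) also lie upstream of the start, and that of *Aen* lies just after one of its 2 starts. No exact half-site stood in the windows of *Eda2r*, *Phlda3* or *Sesn2*, which says only that these letters are not in these windows. *Cdkn1a* and *Eda2r*, the genes with the largest changes with Adriamycin under vehicle, differ in this respect.

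Sequencing depth was 15665050 to 27583911 assigned reads per kidney in the Adriamycin experiment, and *Eda2r*, the lowest of the 10 genes, had 15 to 64 reads per library there. Levels are given as normalised read counts scaled to library size (CPM), scaled within each experiment, and log2 fold changes are given ± their standard error. A gene is said to rise or fall where edgeR's quasi-likelihood test gave a Benjamini-Hochberg adjusted p below 0.05 over all genes of the experiment, 16020 in the Adriamycin experiment. In bulk kidney, fewer cells of a type and less RNA per cell cannot be told apart. None of 38 markers of proximal tubule, podocyte, endothelium, distal segments, leukocytes and fibroblasts was at 0 in any group of kidneys. At this sequencing depth that check could hardly fail, so it says little about the labels.

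Adriamycin against healthy mice, both given vehicle, asks which genes differed without injected FGF23. The drug itself and the disease that follows it cannot be told apart in this comparison. 2 of the 10 p53 targets rose and 0 fell, where 0.119% of all genes tested rose and 0.212% fell. The 2 were *Cdkn1a* and *Eda2r*. 9 of the 10 log2 fold changes were above 0 and their median was 0.25, while the median over all genes was -0.0038 and 48.6% of all genes were above 0. At an unadjusted p below 0.05, 7 of the 10 genes were higher, against 4.15% of all genes (8.27% in either direction). In 4 of the 10, *Cdkn1a*, *Eda2r*, *Ccng1* and *Zmat3*, every Adriamycin kidney lay above every healthy kidney, as 2.84% of all genes did. The 10 genes were chosen with earlier results of these data known, so these counts are a description.

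*Cdkn1a* encodes p21, the inhibitor of cyclin-dependent kinases through which p53 stops the cell cycle. It lies at chr17:29090976-29100727 on the plus strand (GRCm38), and another annotated gene on the opposite strand overlaps it. Its level was 4.87, 6.44, 4.998 and 4.83 CPM in the healthy vehicle kidneys and 12.2, 12.2, 12.1 and 12.5 CPM in the Adriamycin vehicle kidneys. The groups did not overlap, and the Adriamycin kidneys were nearly equal. The fold change was 2.32, or 1.21 ± 0.14 on the log2 scale (n = 4 and 4, edgeR adjusted p = 0.00165), with a 95% interval of 0.91 to 1.51.

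Of the 5 genes that act in cell death, 1 rose. *Eda2r*, a receptor of the tumour necrosis factor family that binds ectodysplasin A2, lies at chrX:97333840-97377216 on the minus strand. It stood at 1.03, 1.07, 0.735 and 1.14 CPM in healthy vehicle kidneys and at 2.25, 2.94, 2.41 and 2.74 CPM in Adriamycin vehicle kidneys. The lowest Adriamycin kidney lay well above the highest healthy kidney. The rise was 2.57-fold (log2 1.36 ± 0.18, n = 4 and 4, edgeR adjusted p = 0.00381), and it rests on 15 to 28 reads per healthy and 46 to 64 per Adriamycin library.

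*Phlda3*, whose product competes with the survival kinase Akt for membrane lipids, stood at 3.99, 4.83, 5.68 and 5.80 CPM in healthy and 5.76, 7.94, 9.30 and 5.01 CPM in Adriamycin kidneys. The groups overlapped, with 2 Adriamycin kidneys inside the healthy range and 2 above it, and the log2 difference of 0.47 ± 0.21 did not pass (adjusted p = 0.575 by edgeR). *Bax*, which forms the mitochondrial pores of apoptosis and overlaps another annotated gene on its strand, stood at 19.2, 16.6, 17.5 and 16.21 CPM against 18.5, 20.3, 19.9 and 19.6 CPM. It overlapped through 1 healthy kidney, and the difference of 0.17 ± 0.06 (adjusted p = 0.423 by edgeR) did not pass. *Aen*, a nuclease of apoptotic cells, ranged from 15.17 to 18.2 CPM in healthy and from 16.9 to 23.002 CPM in Adriamycin kidneys (log2 difference 0.27 ± 0.12). *Trp53inp1*, a stress protein that enhances p53 activity, ranged from 25.0 to 31.2 and from 28.6 to 38.3 CPM (log2 difference 0.14 ± 0.13). Neither of these last 2 passed the test.

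The 2 genes of the feedback on p53 did not move alike. *Ccng1* encodes cyclin G1, which brings a phosphatase to Mdm2 and so adjusts its activity. It stood at 218, 206, 199 and 192 CPM in healthy and 248, 251, 237 and 253 CPM in Adriamycin kidneys. The groups did not overlap, yet the log2 difference of 0.28 ± 0.06 missed the threshold (adjusted p = 0.0683 by edgeR). It passed in 3 of 8 alternatives, among them DESeq2 (adjusted p = 0.00387) and no filter on low counts (adjusted p = 0.0487 by edgeR). It did not pass in any of the 8 fits that left out 1 kidney, and the adjusted p reached 0.2515 by edgeR. *Mdm2*, the ubiquitin ligase that limits p53, stood at 43.9, 42.3, 46.4 and 45.0 CPM against 42.5, 46.2, 46.3 and 45.5 CPM. These ranges coincided, and the 95% interval of the log2 difference, -0.08 to 0.13, holds no change above 0.13 in either direction.

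Of the remaining pair, *Zmat3*, an RNA-binding zinc finger protein that acts on splicing, ranged from 20.7 to 25.4 CPM in healthy and from 26.2 to 28.5 CPM in Adriamycin kidneys. The groups did not overlap, and the log2 difference of 0.23 ± 0.07 had an adjusted p of 0.333 by edgeR. *Sesn2*, which restrains mTORC1 under stress and also overlaps a gene on its strand, ranged from 66.0 to 85.1 CPM in healthy and from 51.6 to 94.1 CPM in Adriamycin kidneys, so the diseased range enclosed the healthy one (log2 difference -0.02 ± 0.19).

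**Figure D1:**
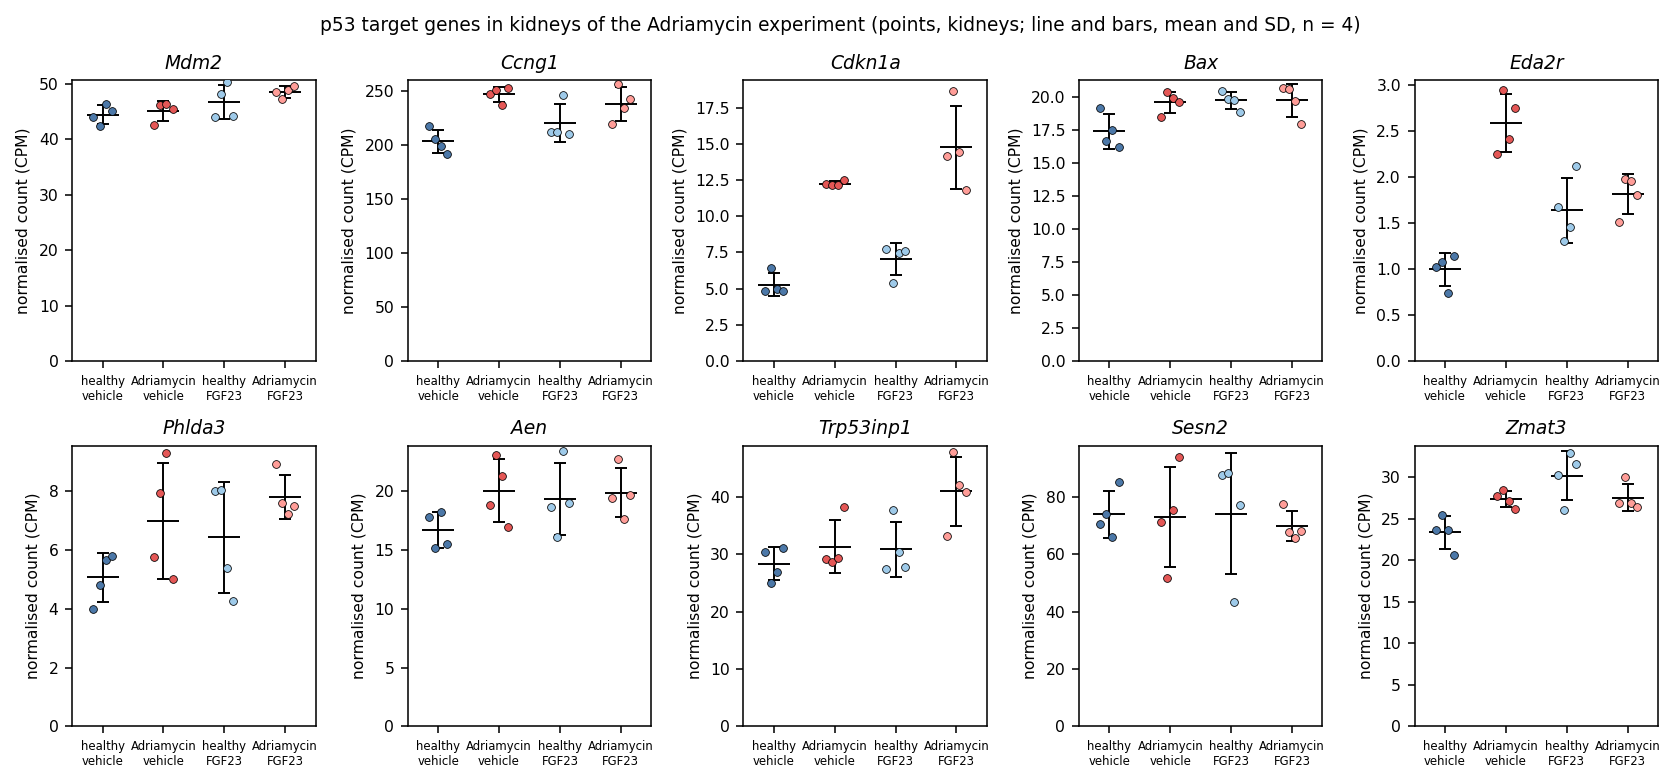
Normalised count in CPM (y axis, from 0) of the 10 p53 target genes in the 16 kidneys of the Adriamycin experiment, by group (x axis), with points for kidneys and lines and bars for mean and SD (n = 4). The Adriamycin vehicle kidneys of *Cdkn1a* sit between 12.1 and 12.5 CPM, above all healthy vehicle kidneys, while those of *Mdm2* coincide with the healthy ones.

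Under FGF23, the same comparison of Adriamycin with healthy mice used 8 other kidneys. Of the p53 targets 1 of 10 rose and 0 fell, against 0.462% and 0.237% of all genes. *Cdkn1a* stood at 7.77, 5.39, 7.497 and 7.58 CPM in healthy FGF23 kidneys and at 14.17, 18.7, 14.4 and 11.8 CPM in Adriamycin FGF23 kidneys. The groups did not overlap, as for 3.06% of all genes, and the rise was 2.11-fold (log2 1.07 ± 0.14, n = 4 and 4, edgeR adjusted p = 0.00258). Thus *Cdkn1a* rose in both independent sets of mice, by sizes whose intervals (0.91 to 1.51 and 0.78 to 1.37) overlapped.

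*Eda2r* did not pass in the FGF23-treated mice. It stood at 1.67, 1.31, 1.46 and 2.12 CPM in healthy FGF23 kidneys and 1.505, 1.98, 1.95 and 1.80 CPM in Adriamycin FGF23 kidneys. The ranges overlapped (log2 difference 0.15 ± 0.18, adjusted p = 0.792 by edgeR). With both arms averaged, an alternative chosen after seeing the data, *Eda2r* was higher with Adriamycin by 0.76 on the log2 scale (edgeR adjusted p = 0.00513). That average contains the vehicle kidneys in which *Eda2r* had already passed. *Trp53inp1* was the other gene at an unadjusted p below 0.05 in this arm, so 2 of 10 were, against 5.79% of all genes in that direction (12.7% in either). It ranged from 27.5 to 37.8 CPM in healthy and from 33.2 to 47.8 CPM in Adriamycin FGF23 kidneys (log2 0.41 ± 0.13, edgeR adjusted p = 0.185). The other 7 genes lay between -0.13 (*Zmat3*) and 0.28 (*Phlda3*), and *Ccng1* was at 0.11 ± 0.06. The median of the 10 was 0.08, against -0.0074 over all genes.

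FGF23 itself was tested separately in healthy and in Adriamycin mice. In healthy BALB/c mice, 0 of 10 p53 targets and 0% of all genes passed, with 4 of 10 at an unadjusted p below 0.05 against 6.69% of all genes, and 1 of 10, *Zmat3*, passed with DESeq2 (adjusted p = 0.0229). All 10 log2 differences were above 0, with a median of 0.19 against 0.0027 over all genes, of which 51.1% were above 0. *Zmat3* stood at 23.7, 25.4, 23.6 and 20.7 CPM in vehicle and 30.2, 26.03, 32.9 and 31.6 CPM in FGF23 kidneys. *Zmat3* and *Eda2r* were the 2 of 10 whose groups did not overlap, as for 1.61% of all genes. Their log2 differences were 0.37 ± 0.07 (edgeR adjusted p = 0.439) and 0.71 ± 0.19 (edgeR adjusted p = 0.688). *Cdkn1a* was at 0.41 ± 0.14 and *Bax* at 0.18 ± 0.06. This comparison and that of Adriamycin with healthy mice under vehicle share the 4 healthy vehicle kidneys, in each of which 1 of the 10 genes lay above its mean over the 16 kidneys, so the level of those 4 kidneys enters both.

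In Adriamycin mice, FGF23 moved 0 of 10 p53 targets past the threshold by edgeR and 0 by DESeq2, while 0.0375% of all genes passed with edgeR. At an unadjusted p below 0.05 there were 2 of 10, against 5.69% of all genes. *Eda2r* was lower in the FGF23 group but did not pass (log2 -0.51 ± 0.17, edgeR adjusted p = 0.773). It ranged from 2.25 to 2.94 CPM in vehicle and from 1.505 to 1.98 CPM in FGF23 kidneys. *Trp53inp1* stood at 29.2, 28.6, 29.3 and 38.3 CPM in vehicle and 33.2, 47.8, 42.0 and 40.8 CPM in FGF23 kidneys (log2 0.39 ± 0.13, edgeR adjusted p = 0.718), and 1 vehicle kidney lay within the FGF23 range.

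The test of whether the FGF23 effect differed between Adriamycin and healthy mice passed for 0 of 10 p53 targets by edgeR and for 0 by DESeq2, with 0% of all genes past the threshold by edgeR. An unadjusted p below 0.05 was reached by 2 of 10 against 5.11% of all genes. *Eda2r* differed most, by -1.22 ± 0.26 on the log2 scale (95% interval -1.76 to -0.67, unadjusted p = 0.000225 and adjusted p = 0.515 by edgeR). Its mean was 0.994 CPM in healthy vehicle, 1.64 in healthy FGF23, 2.58 in Adriamycin vehicle and 1.81 in Adriamycin FGF23 kidneys. *Zmat3* differed by -0.36 ± 0.11 (unadjusted p = 0.00363 and adjusted p = 0.902 by edgeR), with means of 23.3, 30.2, 27.4 and 27.5 CPM in the same order. In both genes the FGF23 group lay above vehicle in healthy mice and level with it or below in Adriamycin mice.

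**Figure D2:**
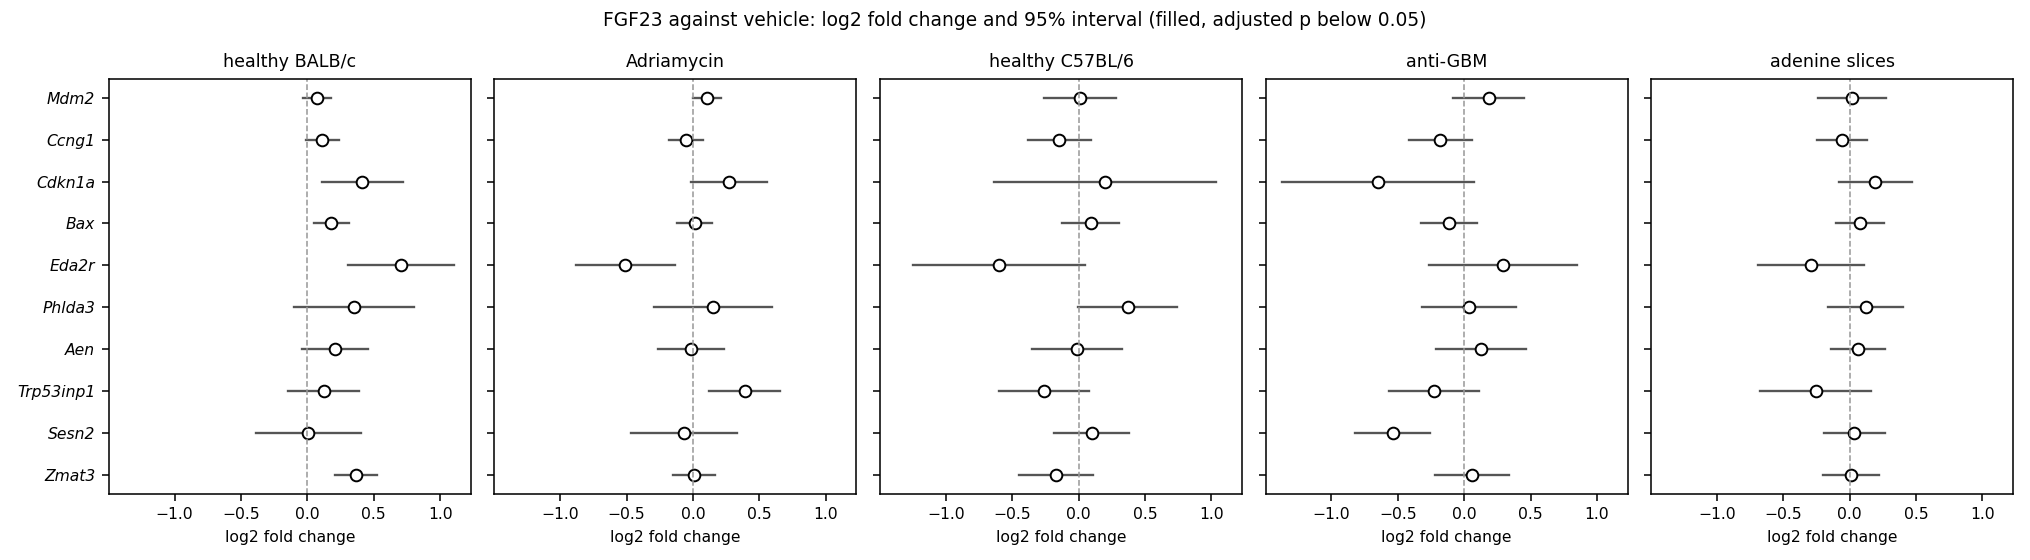
Log2 fold change of FGF23 against vehicle (x axis) with its 95% interval for each of the 10 p53 target genes (y axis) in 5 settings, with filled points for an adjusted p below 0.05. No point is filled, and all 10 lie above 0 in healthy BALB/c mice, from 0.0075 (*Sesn2*) to 0.71 (*Eda2r*).

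To show the genes side by side, each was scaled over the 16 kidneys to mean 0 and SD 1 of log2 CPM, and the scaled values of the 10 were averaged per kidney as a description. The 4 healthy vehicle kidneys lay lowest, from -1.06 to -0.75, and 1 of 10 genes stood above its mean in each. The Adriamycin vehicle kidneys lay between -0.02 and 0.50 with 5 to 9 genes above the mean. The healthy FGF23 kidneys lay between -0.20 and 0.21 with 4 to 5 genes above it, and the Adriamycin FGF23 kidneys between 0.39 and 0.97 with 7 to 9. The healthy vehicle kidneys thus stood apart from the other 12, while the ranges of the other groups partly met. The single gene values followed this average to different degrees, with Pearson's r over the 16 kidneys from 0.87 (*Cdkn1a*) and 0.81 (*Ccng1* and *Bax*) down to 0.55 (*Mdm2*) and -0.17 (*Sesn2*). Each gene is itself in the average.

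**Figure D3:**
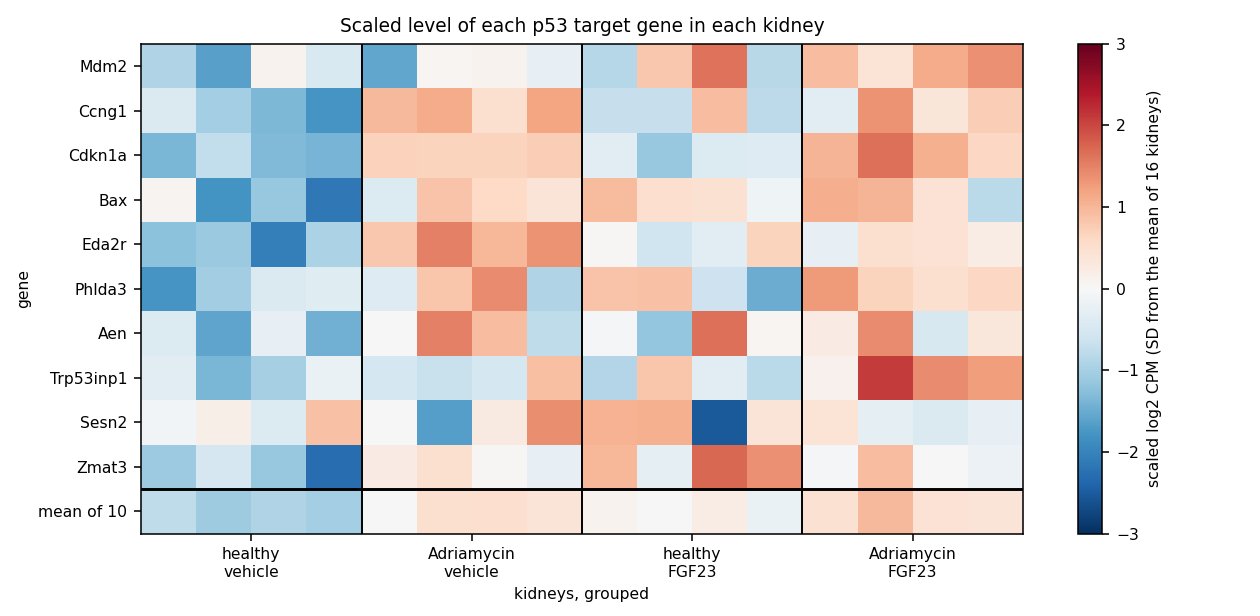
Level of each p53 target gene (rows) in each of the 16 kidneys of the Adriamycin experiment (columns, by group), as log2 CPM scaled to mean 0 and SD 1 over the 16 kidneys (colour, in SD), with the mean of the 10 in the last row. The healthy vehicle kidneys have means of -1.06 to -0.75, and *Sesn2* does not share the pattern of the other rows.

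The genes outside the 10 whose log2 CPM was most like that average over the 16 kidneys included *Tmc3* (Pearson's r = 0.88), *Utp20* (0.86), *Arhgef3* (0.85), *Gstm7* (0.84), *Slc25a32* (0.84), *Klf9* (0.83), *Dnph1* (0.82), *Ccnd1* (0.82) and *Tagln2* (0.82). They share the 4 groups and the libraries with it. 3 of these, *Utp20*, *Gstm7* and *Ccnd1*, rose in Adriamycin against healthy kidneys under vehicle (edgeR adjusted p = 0.0172, 0.0376 and 0.0262). The healthy vehicle kidneys, lowest in the average these genes were chosen to follow, enter that comparison, and under FGF23 the adjusted p by edgeR was 0.0267 for *Utp20*, 0.0570 for *Gstm7* and 0.808 for *Ccnd1*. Of 43 further p53 targets, 0 were among the 100 most alike of 16010 genes, and the closest was *Ei24* at rank 214 (r = 0.65). With 43 genes among 16010, 0 in the first 100 is the likely count for any list, so this says little about these targets.

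A wider list of p53 targets gave no calls under vehicle. Of 46 further targets, 43 were tested, and under vehicle 0 rose and 0 fell in Adriamycin kidneys by edgeR or by DESeq2, with 9 of 43 at an unadjusted p below 0.05, against 8.27% of all genes. Their log2 differences ran from -0.55 to 0.83 with a median of 0.02. The apoptosis genes *Bbc3* (0.25 ± 0.27) and *Pmaip1* (-0.14 ± 0.15), the death receptor gene *Fas* (0.25 ± 0.12), the sestrin *Sesn1* (-0.01 ± 0.06), the cytokine *Gdf15* (0.0020 ± 0.39) and the antiproliferative gene *Btg2* (0.43 ± 0.42) are examples. None of these 6 passed the test. Under FGF23, where 0.462% of all genes rose and 0.237% fell, 1 of 43 rose, *Ddit4*, an inhibitor of mTORC1 (log2 1.199 ± 0.21, edgeR adjusted p = 0.0146), and 1 fell, *Ier5*, an immediate early response gene (-0.56 ± 0.10, edgeR adjusted p = 0.0171). These 2 are named because they were the only calls, after their values were seen. Under vehicle *Ddit4* was at 0.51 ± 0.20 and *Ier5* at -0.13 ± 0.10, and neither passed.

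The transcript of p53 itself, *Trp53*, ranged from 30.9 to 32.9 CPM in healthy vehicle and from 28.8 to 32.8 CPM in Adriamycin vehicle kidneys, so the groups overlapped (log2 -0.07 ± 0.06). *Mdm4*, the partner of Mdm2 in restraining p53, was at -0.07 ± 0.09. Of 12 tested genes for p53 and its regulators, 0 passed by edgeR or DESeq2. An unadjusted p below 0.05 was reached by 1 of them, against 8.27% of all genes.

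Among genes that handle doxorubicin or are hit by it, 1 of 7 rose under vehicle, where 0.119% of all genes rose. *Abcb1b*, a P-glycoprotein efflux pump for which doxorubicin is a substrate, stood at 54.3, 58.7, 48.7 and 60.8 CPM in healthy vehicle and at 98.8, 81.7, 96.7 and 92.7 CPM in Adriamycin vehicle kidneys. The groups were far apart, and the log2 difference of 0.73 ± 0.08 had an adjusted p of 0.00140 by edgeR, the smallest of all 16020 genes. In FGF23-treated mice it ranged from 58.3 to 64.4 CPM in healthy and from 80.5 to 98.8 CPM in Adriamycin kidneys (log2 0.59 ± 0.08, edgeR adjusted p = 0.00258). *Abcb1b* also rose in anti-GBM disease under vehicle, where no doxorubicin was given and its level was lower, from 4.89 to 5.32 CPM in healthy and from 6.34 to 12.2 CPM in diseased kidneys (log2 0.72 ± 0.18, edgeR adjusted p = 0.00660). In anti-GBM disease under FGF23 its log2 difference was 0.33 ± 0.20 and did not pass (edgeR adjusted p = 0.249). The difference between the 2 disease effects, tested under vehicle only, was -0.0056 ± 0.17 and did not pass (edgeR adjusted p = 0.988). *Top2a* and *Top2b*, the topoisomerases that doxorubicin traps, were at 0.12 ± 0.28 and 0.03 ± 0.05 under vehicle, and neither passed.

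Beside the rise of the cell cycle inhibitor *Cdkn1a*, 1 of 19 proliferation genes rose under vehicle and 0 fell. Of all genes, 0.119% rose and 0.212% fell. *Ccnd1*, which encodes cyclin D1 and drives entry into the cycle, stood at 283, 352, 291 and 327 CPM in healthy vehicle and 448, 437, 422 and 511 CPM in Adriamycin vehicle kidneys. The groups did not overlap (log2 0.54 ± 0.10, n = 4 and 4, edgeR adjusted p = 0.0262). Under FGF23 it ranged from 372 to 510 CPM in healthy and from 409.6 to 489 CPM in Adriamycin kidneys (log2 0.07 ± 0.10), so that, like *Eda2r*, it passed under vehicle and not under FGF23. The test of the difference between these arms is that of the FGF23 effects, and it did not pass for *Ccnd1* (log2 -0.46 ± 0.14, edgeR adjusted p = 0.902).

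No marker of a cell type or of injury passed by edgeR with Adriamycin under vehicle. Under vehicle 0 of 38 cell type markers passed by edgeR or DESeq2, where 0.119% of all genes rose and 0.212% fell by edgeR. An unadjusted p below 0.05 was reached by 4 of the 38, against 8.27% of all genes, so neither count sets the markers apart. The summed level of 6 podocyte markers was 604 to 669.6 CPM in healthy and 627 to 751 CPM in Adriamycin kidneys, that of 8 leukocyte markers 148 to 195 and 107 to 170.0 CPM, and that of 5 fibroblast markers 184 to 284 and 143 to 256 CPM. All these ranges overlapped. 6 tubular injury genes summed to 1546 to 1688 CPM in healthy and 1257 to 1554 CPM in Adriamycin kidneys. 0 of the 6 passed by edgeR and 1 had an unadjusted p below 0.05, *Havcr1*, the injury marker KIM-1, which was lower in the Adriamycin group (log2 -1.21 ± 0.28, adjusted p = 0.101) and passed with DESeq2. Their part in the changes of *Cdkn1a* and *Eda2r* was not tested.

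Anti-GBM disease served as the comparison without doxorubicin, and it changed far more genes. Of the 10 p53 targets 4 rose and 1 fell under vehicle, where 19.4% of all genes rose and 20.4% fell. *Cdkn1a* stood at 5.15, 4.04, 5.74 and 6.16 CPM in healthy and 20.3, 26.3, 62.1 and 62.5 CPM in anti-GBM kidneys. The diseased kidneys fell into a lower and a higher pair, and the rise was 8.13-fold (log2 3.02 ± 0.35, n = 4 and 4, edgeR adjusted p = 3.12e-05). *Phlda3* rose from 4.36, 4.37, 5.64 and 4.37 CPM to 8.23, 10.1, 12.84 and 13.53 CPM (log2 1.25 ± 0.16, edgeR adjusted p = 7.07e-05). *Sesn2* (0.51 ± 0.12) and *Bax* (0.41 ± 0.09) also rose.

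*Ccng1* fell in anti-GBM kidneys, from 258, 299.6, 230.4 and 302 CPM to 215, 215, 219.8 and 199 CPM (log2 -0.36 ± 0.10, edgeR adjusted p = 0.0125). The call was lost without either of the 2 highest healthy kidneys or without the lowest diseased one (adjusted p = 0.0666, 0.0664 and 0.0534 by edgeR). *Eda2r* was at 0.65 ± 0.26 (adjusted p = 0.0597 by edgeR), and it passed without the highest healthy kidney (0.0269) or the lowest diseased kidney (0.0228). *Mdm2*, *Aen*, *Zmat3* and *Trp53inp1* lay between -0.15 and -0.0028 and did not pass.

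Under FGF23, 3 of the 10 rose and 1 fell in anti-GBM disease, against 14.5% and 12.7% of all genes. *Cdkn1a* stood at 5.24, 5.92 and 6.90 CPM in healthy and 32.05, 18.2 and 31.5 CPM in anti-GBM kidneys (log2 2.18 ± 0.39, n = 3 and 3, edgeR adjusted p = 0.00120). *Eda2r* stood at 0.481, 0.906 and 0.657 CPM against 2.11, 1.85 and 1.88 CPM (log2 1.54 ± 0.30, n = 3 and 3, edgeR adjusted p = 0.00227). *Phlda3* rose too (0.92 ± 0.18). *Ccng1* fell by 0.39 on the log2 scale (SE 0.12), a call lost without each of 2 healthy and 2 diseased kidneys in turn, with adjusted p up to 0.126 by edgeR.

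Markers moved with this disease. 7 of 8 leukocyte markers, 5 of 5 fibroblast markers and 6 of 6 tubular injury genes rose under vehicle, and 5 of 7 proximal tubule markers fell. The injury genes summed to 594 to 935 CPM in healthy and 3931 to 16294 CPM in anti-GBM kidneys. Of the further p53 targets 17 rose and 6 fell among 42 tested, where 19.4% of all genes rose and 20.4% fell. *Trp53* rose (log2 0.40 ± 0.11, edgeR adjusted p = 0.00929), and 17 of 19 proliferation genes rose while 1 fell. The 1 that fell was *Ccnd1* (log2 -0.46 ± 0.14, edgeR adjusted p = 0.0201), whose effect in Adriamycin was higher by 0.99 ± 0.18 (edgeR adjusted p = 0.000153). The part of these cells and of injury in the p53 targets was not tested.

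**Figure D4:**
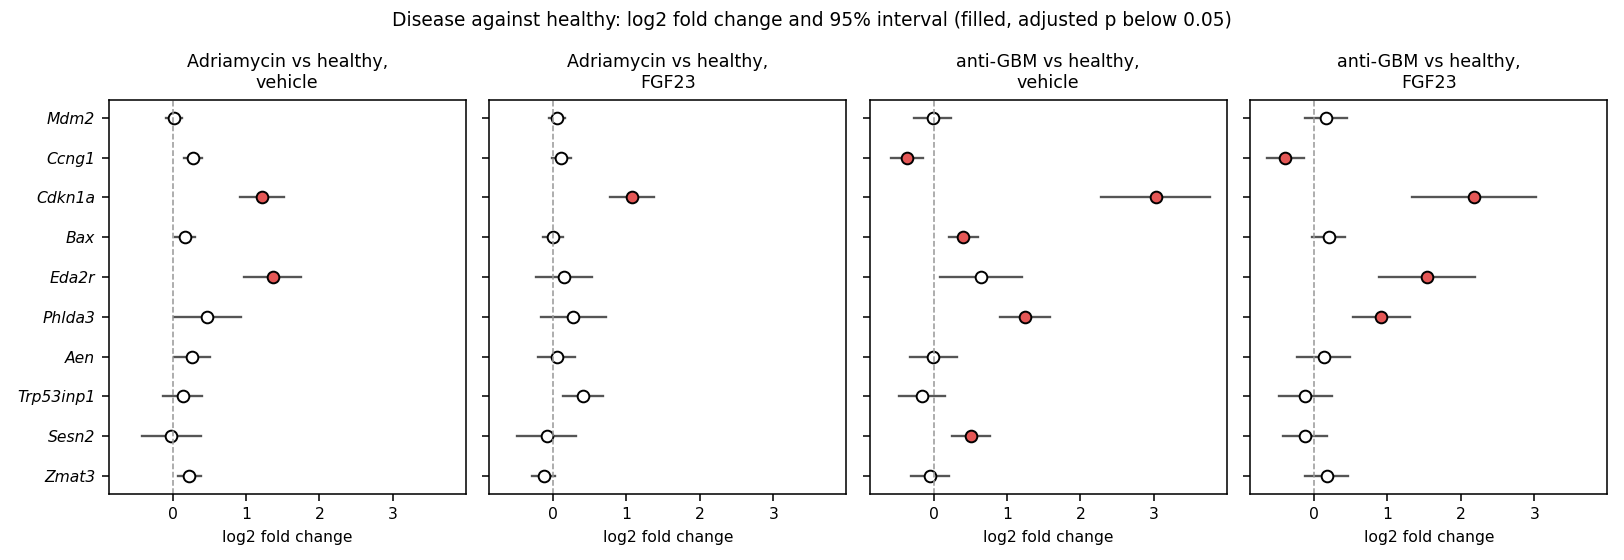
Log2 fold change of disease against healthy (x axis) with its 95% interval for the 10 p53 target genes (y axis), for Adriamycin and anti-GBM disease under vehicle and under FGF23, with filled points for an adjusted p below 0.05. *Cdkn1a* is filled in all 4 panels, from 1.07 to 3.02, *Eda2r* in 2, and *Ccng1* lies above 0 in the Adriamycin panels and is filled below 0 in the anti-GBM panels.

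The difference between the 2 disease effects under vehicle was tested in 1 fit of all 30 kidneys. It passed for 3 of 10 genes, 1 with the higher effect in Adriamycin (15.7% of all genes) and 2 with the lower (15.7%). The effect on *Ccng1* was higher in Adriamycin by 0.63 ± 0.12 (edgeR adjusted p = 0.000242). *Ccng1* fell in anti-GBM disease, while its difference in Adriamycin lay above 0 but did not pass by itself. The effect on *Cdkn1a* differed by -1.82 ± 0.38 (edgeR adjusted p = 0.000793), so that it rose less in Adriamycin. That on *Phlda3* differed by -0.78 ± 0.28 (edgeR adjusted p = 0.033), a call lost without each of 9 of the 16 vehicle kidneys in turn (adjusted p up to 0.0707 by edgeR), 5 of them from the anti-GBM experiment and 4 from the Adriamycin experiment. *Eda2r* differed by 0.70 ± 0.30 and did not pass (adjusted p = 0.0788 by edgeR), although it passed without 1 anti-GBM kidney (0.0308), and *Sesn2* differed by -0.54 ± 0.24 and passed only without 1 Adriamycin kidney (0.0301). Model, strain, sex, length of treatment and experiment differ together here and cannot be told apart.

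FGF23 against vehicle passed for 0 of the 10 genes in anti-GBM mice (0.24% of all genes), with 1 at an unadjusted p below 0.05 against 12.6% of all genes. That gene was *Sesn2*, at 69.1, 59.5, 77.4 and 80.2 CPM under vehicle and 57.9, 47.8 and 42.1 CPM under FGF23 (log2 -0.54 ± 0.13, edgeR adjusted p = 0.166), and it was the 1 gene that passed with DESeq2 (adjusted p = 0.0261). In healthy C57BL/6 mice 0 of 10 passed by edgeR (0% of all genes) or by DESeq2, and 0 of 10 had an unadjusted p below 0.05, against 4.34% of all genes. In the slices 0 of 10 passed by edgeR (0% of all genes) or DESeq2, with 0 of 10 at an unadjusted p below 0.05 against 4.89%. The 95% intervals of the 10 genes in the slices lay between -0.69 and 0.47.

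Slices held far more of several p53 target transcripts than any kidney. *Cdkn1a* stood at 492, 382, 480.5 and 465.5 CPM in vehicle slices and 434, 523, 624 and 499.5 CPM in FGF23 slices. With all experiments scaled together, the mean of the vehicle slices was 67.7 times that of healthy BALB/c kidneys and 64.1 times that of healthy C57BL/6 kidneys. *Eda2r* (7.77 and 7.16 times) and *Phlda3* (4.65 and 4.76 times) were also higher, while *Ccng1* was lower (0.437 and 0.308 times). *Bax*, *Mdm2*, *Zmat3*, *Aen* and *Sesn2* lay between 1.204 and 2.96 times, and *Trp53inp1* at 1.38 and 0.790 times. These are levels without a test, since there are no healthy slices, and strain, sex, diet, culture and experiment cannot be told apart.

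**Figure D5:**
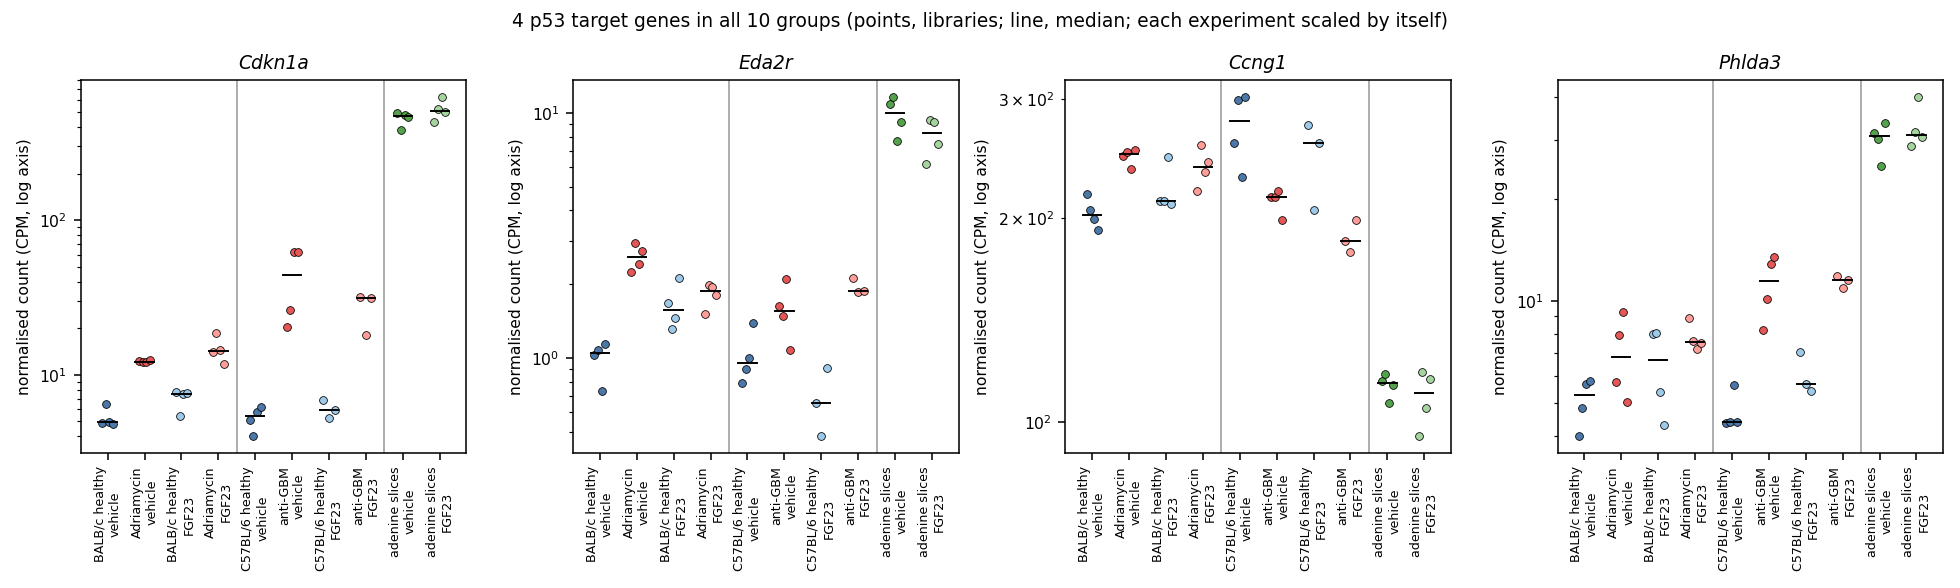
Normalised count in CPM (y axis, log scale) of *Cdkn1a*, *Eda2r*, *Ccng1* and *Phlda3* in all 38 libraries by group (x axis), with points for libraries and lines for medians, each experiment scaled by itself. Slices lie highest for *Cdkn1a* (382 to 624 CPM), *Eda2r* and *Phlda3* and lowest for *Ccng1*.

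Per kilobase of exons in the annotation, the levels of the 10 genes in healthy vehicle kidneys of the Adriamycin experiment spanned a wide range. *Ccng1* was the highest at 58.0 CPM per kilobase, followed by *Sesn2* (21.3), *Bax* (11.03), *Mdm2* (8.74), *Trp53inp1* (4.38), *Phlda3* (3.26), *Aen* (2.87), *Zmat3* (2.04), *Cdkn1a* (1.49) and *Eda2r* (0.169). Of the neighbours in this order, *Phlda3* and *Aen* overlapped between kidneys, as did *Zmat3* and *Cdkn1a*, and the others did not. In Adriamycin vehicle kidneys *Cdkn1a* reached 3.45 and *Eda2r* 0.439 CPM per kilobase, so the 2 genes that rose were the 2 that were lowest in healthy kidneys.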

How the data were processed

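The deposited table held raw counts per gene (55487 genes, 38 libraries), made by the authors from stranded poly(A) libraries of a kidney fragment or of slices. Per the submitters' processing notes, bcl2fastq 2.20.0, FastQC 0.11.8, STAR 2.7.9a, featureCounts 1.5.1 and the genome build GRCm38 were used, and the strand setting of the counting is not given in the sources used here. Reads of genes that overlap *Bax*, *Cdkn1a* or *Sesn2* may therefore be shared. Gene positions, lengths and overlaps come from a GENCODE annotation of GRCm38, which may differ from the authors' annotation. Library totals were 13704248 to 27583911 reads in kidneys and 11186925 to 16254987 in slices.

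Counts were fitted with edgeR 4.0.16 in R 4.3.3 (quasi-likelihood test, TMM scaling, filterByExpr with a minimum count of 10, Benjamini-Hochberg adjustment over all genes). 1 fit was made per experiment, and 1 fit over all 30 kidneys served the difference between disease effects. DESeq2 1.42.0, other filters, scalings and groups, and leaving out each library were the alternatives. The scripts were tested on simulated counts. Kidney columns carry mouse numbers only and were assigned to the labelled groups through the group headings the study gives for the same column names, where 1 mouse number differs from its column. Where the labels do not say that samples are separate animals or cultures, p-values measure the spread between samples. No libraries were duplicates, since same-group pairs differed by more than counting noise.

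The 10 genes and all lists were chosen with earlier results of these data known. Named from the lists were, in Adriamycin against healthy mice under vehicle, the 5 genes with the smallest p past the threshold per list and direction, and 10 genes whatever their values (*Trp53*, *Mdm4*, *Top2a*, *Top2b*, *Bbc3*, *Pmaip1*, *Fas*, *Sesn1*, *Gdf15*, *Btg2*). The 10 genes most alike were chosen by Pearson's r, and 1 of them is not reported here.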

Additional observations from a re-analysis of the deposited data

Results flagged for a closer look

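In 7 of 80 groups of 4 libraries (10 genes in 8 groups), 1 library stood apart from the other 3 by Dixon's test, and about 5% of such groups are expected by chance. In the Adriamycin experiment these were *Ccng1* in 1 healthy FGF23 kidney (246.8 CPM, the next at 212.4), *Cdkn1a* in 1 healthy vehicle kidney (6.443 CPM, the next at 4.998) and in 1 healthy FGF23 kidney (5.389 CPM, the next at 7.497), *Trp53inp1* in 1 Adriamycin vehicle kidney (38.28 CPM, the next at 29.26) and *Zmat3* in 1 Adriamycin FGF23 kidney (29.99 CPM, the next at 26.94). Among healthy C57BL/6 vehicle kidneys these were *Mdm2* in 1 kidney (54.8 CPM, the next at 46.04) and *Phlda3* in another (5.641 CPM, the next at 4.373). No 2 of the 7 came from the same kidney. *Cdkn1a* rose with Adriamycin under vehicle and under FGF23 also without the kidney that stood apart.

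The disease effect differed between Adriamycin and anti-GBM mice under vehicle, by the test of the difference in edgeR, for *Ccng1* (0.6273 on the log2 scale, Adriamycin minus anti-GBM, adjusted p = 0.000242), *Cdkn1a* (-1.82, adjusted p = 0.000793) and *Phlda3* (-0.7842, adjusted p = 0.033). Model, strain, sex and experiment cannot be told apart.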

How the results depend on the processing

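With Adriamycin under vehicle, *Cdkn1a* and *Eda2r* rose in all 8 alternatives and without each of the 8 kidneys in turn (adjusted p up to 0.0109 and 0.0219). *Cdkn1a* under FGF23 rose in all 7 alternatives and without each of the 8 kidneys (up to 0.0338). 1 of the 8 alternatives under vehicle, with both arms averaged, was chosen after seeing the data. *Ccng1* passed under vehicle in 3 of these 8, without a filter, with DESeq2 and with both arms averaged (adjusted p = 0.0487, 0.00387 and 0.0254). It did not pass in any of the 8 fits that left out 1 kidney. Of the 10 genes called, DESeq2 gave 1 for FGF23 in healthy BALB/c and 1 in anti-GBM mice in place of 0, and a log2 change above 1 left 2 in anti-GBM disease under vehicle, 2 under FGF23 and 1 for the difference between diseases. Leaving out 1 kidney gave 4 to 6, 3 to 4 and 2 to 3 for these last 3. *Sesn2* was weaker in anti-GBM disease with both arms averaged (0.19, adjusted p = 0.0988). *Eda2r* there passed with at least 10 counts in every sample (0.0299) and with both arms averaged (0.000486). The cause was not tested.

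Counts over all genes depended more on the setting. For Adriamycin under vehicle, 53 genes became 31 with a log2 change above 1, 98 without a filter, 158 with DESeq2, 19 with only the groups compared, 310 with both arms averaged, and 10 to 100 without 1 kidney. Under FGF23, 112 became 31, 265 (DESeq2), 43 (only the groups compared) and 21 to 119. For FGF23 in Adriamycin, 6 became 1, 21 (no filter), 36 (DESeq2), 3 and 1 to 12. In healthy BALB/c, 0 became 1 (no filter), 16 (DESeq2) and 0 to 4, and for the difference of FGF23 effects 0 became 1, 7 and 0 to 1. For anti-GBM disease a log2 change above 1 left 1554 of 6304 genes under vehicle (4978 to 6167 without 1 kidney), 1444 of 4310 under FGF23 (2888 to 3853), and 1552 of 5316 for the difference between diseases (4612 to 5606). For FGF23 in anti-GBM mice, 38 became 25, 60, 161, 12 and 12 to 49, in healthy C57BL/6 mice 0 became 0 to 1, and in slices 0 became 2 (no filter) and 3 (DESeq2).

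Signs changed for differences near 0 only, each without 1 kidney. Under vehicle *Sesn2* then ran from -0.16 to 0.12 (above 0 in 2 cases, one of them at 0.057), and under FGF23 *Aen* ran from -0.030 to 0.15 (below 0 in 2, the other at -0.024), *Bax* from -0.017 to 0.048 (below 0 in 3) and *Sesn2* from -0.27 to 0.010 (above 0 in 2, the other at 0.0045). The kidneys were not analysed as pairs, since the study allocated mice to FGF23 or vehicle at random and no label links kidneys across groups. In the slices, same-numbered cultures correlated by 0.11, 0.10, -0.11 and 0.11, so not every pair was above 0.1 and the numbers were not taken as pairing the cultures. A fit with the replicate number as a block also called 0 of 10 genes and 0 genes in all. Replicates 1, 2 and 4 correlated best with their own number and replicate 3 did not. *Eda2r*, at 15 to 64 reads per library, is the gene whose depth limits it most.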
